A study of Mus musculus with 8 samples.

Results

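The genes described here encode the proteins of the cytosolic ribosome. They were taken by gene name alone from an array study of naive mouse CD4 T cells, which are helper T cells that have not yet met their antigen: a symbol that starts with Rpl or Rps and a digit, or with Rplp and a digit, with the S6 kinase genes (Rps6k) and symbols marked as pseudogenes left out. Transcript clusters, the probe groups that the array reports as single values, were used only where the platform annotation gave them 1 symbol. Where a gene had several clusters, the one with the highest mean signal was kept. This left 62 ribosomal protein genes among the 19938 genes tested. Of these, 30 encode large-subunit proteins, 20 small-subunit proteins and 3 the P stalk, and these 53 are called core genes below. The other 9 are named after ribosomal proteins without being the standard subunit gene: the paralogs Rpl3l, Rpl7l1, Rpl10l, Rpl39l, Rps4l and Rps27l, the gene named Rpl32l, the retroposed copy Rps23rg1, and Rps19bp1, which encodes a binding partner of Rps19 and no ribosomal protein.

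The groups were T cell-specific conditional Bcl6-/- mice (4 arrays, called Bcl6 cKO) and wild-type mice (4 arrays, called WT). Bcl6 encodes a transcriptional repressor known for its part in follicular helper T cell differentiation. All 8 samples had 24 hours of stimulation through CD3 and CD28 by antibodies, a stand-in for antigen with costimulation, so both groups describe activated cells. The sources used here give no Cre driver, strain or age of the mice. They do not say whether each sample is a mouse of its own. Signals given below show both sexes in each group, so part of the spread is between animals. The rest of the spread behind every p-value may be technical. Arrays have no read depth, and their number limits the precision.

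The cytosolic ribosome has a small subunit that decodes the messenger RNA and a large subunit that forms peptide bonds. Each ribosome carries 1 copy of most of its proteins, and the stalk made by Rplp0, Rplp1 and Rplp2 recruits the translation factors that hydrolyse GTP. The messenger RNAs of these proteins carry a 5′ terminal oligopyrimidine tract (TOP), through which the kinase mTOR and the RNA-binding protein Larp1 adjust their translation. T cell activation is known to raise ribosome production, and much of that control acts on translation, which arrays do not measure. The comparison of genotypes asks whether the messenger RNA levels of this gene family differed when Bcl6 was deleted.

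The start of these genes is shown first, since the TOP tract is the sequence by which the family is known. RefSeq promoter windows (GRCm38.p6, 250 bases before to 50 after each listed start) were given for 50 of the 62 genes, 59 windows in all. The 4 stretches below hold 60 bases before the start and 20 from it, 5′ to 3′ on the plus strand. Rplp2 and Rpl14 are shown because their listed start opens a pyrimidine run, which is in capitals. Rplp0 and Rps27l are shown because their groups were the ones that did not overlap, and their first transcribed base is in capitals. Rps27l has 2 listed starts and the first is printed.
Rplp2: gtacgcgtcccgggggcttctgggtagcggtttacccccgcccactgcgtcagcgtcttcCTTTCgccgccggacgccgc
Rpl14: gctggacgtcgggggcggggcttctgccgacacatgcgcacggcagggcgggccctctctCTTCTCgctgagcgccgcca
Rplp0: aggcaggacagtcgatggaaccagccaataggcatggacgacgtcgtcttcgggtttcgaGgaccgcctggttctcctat
Rps27l: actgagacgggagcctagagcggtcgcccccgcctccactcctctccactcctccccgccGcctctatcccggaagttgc
These stretches lie at chr7:141447591-141447670 (Rplp2), chr9:120571457-120571536 (Rpl14), chr5:115559407-115559486 (Rplp0) and chr9:66946026-66946105 (Rps27l).

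A listed start with C followed by 4 bases that are C or T was found in 10 of the 59 windows (16.9%), against 2.51% of all 32851 windows. CTTTC on the transcribed strand within 25 bases of the start was found in 13 windows (22.0%), against 6.75% of all. CCGGAAG, the form bound by Ets-family factors, stood on either strand in 19 windows (32.2%), against 8.86% of all. TTCNNNGAA, the spacing that STAT proteins bind, stood in 2 windows (3.39%), those of Rpl4 and Rplp0, against 8.30% of all. TTCCTNGAA, which lies within that form and resembles the sequence Bcl6 binds, was found in 0 of the 59 windows and in 1.59% of all. With 59 windows and a background of 1.59%, a count of 0 is near the background and says nothing particular about these genes. Both strands were searched for the last 3 motifs. A match is a description of these letters and is no evidence of binding, and a listed start can lie some bases from the start that T cells use.

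Facts of the whole data set that touch these genes are few. The deleted gene Bcl6 read 9.05, 8.67, 8.83 and 8.40 log2 units on the Bcl6 cKO arrays, against 8.47, 8.33, 8.56 and 8.10 on the WT arrays, so its signal was not lower where the label says knockout (limma, adjusted p = 0.337). The labels do not say which exons were removed and the sources used here do not say which exons the cluster covers, and this signal is no check of the genotype. Y-linked genes were high and Xist low on 1 Bcl6 cKO array (replicate 1) and 3 WT arrays (replicates 1 to 3), and the reverse held on the other 3 Bcl6 cKO arrays and on WT replicate 4. Sex is therefore unequal between the genotypes, and WT replicate 4 is the only WT array with low Y-linked signal. That array also stood apart from the rest, with an estimated array weight of 0.367, against 0.759 to 1.49 for the other arrays. Of the T cell markers, 8 were measured, and the mean of their log2 signals on an array was 12.44 to 12.59 in Bcl6 cKO, against 12.61 to 12.65 in WT. The mean over 5 B cell markers was 6.47 to 6.59 in Bcl6 cKO, against 6.48 to 6.54 in WT, and that over 7 myeloid markers 6.23 to 6.53 in Bcl6 cKO, against 6.27 to 6.39 in WT. In such samples of many cells, fewer cells of a type and less RNA per cell cannot be told apart.

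Ribosomal protein genes gave some of the brightest signals on the arrays. The mean log2 signal over 8 arrays ran from 5.99 (Rpl39l) to 14.07 (Rpl10), with a median of 12.99, and 46 of the 62 genes reached 12 or more. The highest value of any tested gene on any array was 14.47. Of the core genes, 9 lay below 12, namely Rpl34, Rpl26, Rps3a1, Rpl30, Rps15a, Rpl12, Rpl14, Rpl22 and Rplp2. Signals of different probes share no common scale, so no order of abundance is drawn from them.

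**Figure D1:**
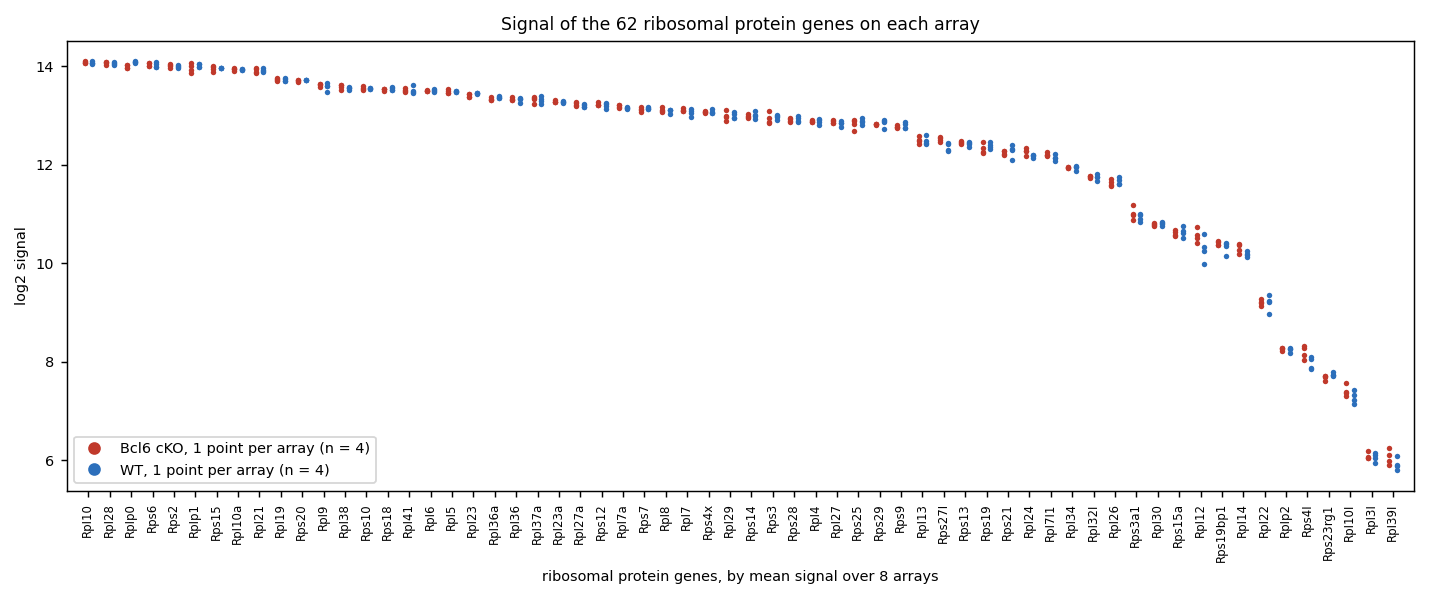
Log2 signal of the 62 ribosomal protein genes (vertical axis), with genes ordered from left to right by their mean over 8 arrays, 1 point per array, Bcl6 cKO in red to the left and WT in blue to the right. Most genes lie above 12, the points of both groups overlap in nearly all of them, and a tail of 6 genes lies below 9.

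The clearest result is how little the family differed between genotypes in the deposited signals, whose processing may reduce a change shared by the family. None of the 62 genes passed the test (limma, adjusted p under 0.05 over all genes), where 44 of 19938 genes did (0.221%), 21 of them higher (0.105%) and 23 lower (0.115%). The smallest adjusted p of a member was 0.314. At an unadjusted p under 0.05, limma counted 3 members, Rps4l, Rps27l and Rpl12, all with positive differences, against 10.9% of all genes (4.68% higher and 6.17% lower). The arrays of the groups did not overlap in 2 members, Rps27l and Rplp0, against 5.97% of all genes. With a family of 62 and a background of 0.221%, a count of 0 is near the background and by itself says nothing particular about these genes.

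The sizes and intervals of the differences say more than the count. Log2 differences (Bcl6 cKO minus WT) ran from -0.09 (Rplp0) to 0.28 (Rpl12), with a median of 0.0050, beside 0.0025 over all genes tested. They were above 0 in 37 members and below 0 in 25, where 51% of all genes lay above 0. A difference of at least 0.1 in size, a fold of 1.07, was measured in 6 of the 62 members (9.68%), against 26.4% of all genes. Among the core genes it was measured in 2 of 53 (3.77%), Rpl12 and Rpl14. The 95% interval of the difference lay wholly within 0.2 on either side of 0, a fold of 1.15, for 54 of the 62 members, against 47% of all genes. Within 0.15, a fold of 1.11, it lay so for 40 members, against 15.5% of all genes.

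The narrow intervals went with little spread between arrays. The span over all 8 arrays, highest minus lowest, had a median of 0.12 log2 units over the core genes, against 0.29 over all genes, and was at most 0.2 in 42 of the 53 core genes (79.2%), against 21.5% of all genes. The smallest span, 0.05, was shared by 6 genes, Rpl10 among them, and the largest was 0.75, for Rpl12. Bright genes in general had less spread, so the core genes were also set beside other genes of like signal. From 13 upward, 0 of 30 core genes differed by at least 0.1 in size, against 13.3% of 98 other genes, and the median SD within groups was 0.032 for the core genes, against 0.051 for the others. From 12 to 13, 0 of 14 core genes did, against 29.6% of 443 other genes. From 10 to 12, 2 of 7 core genes did (28.6%), against 37.7% of 3669 others. Whether probes of very bright genes read changes in full was not tested.

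**Figure D2:**
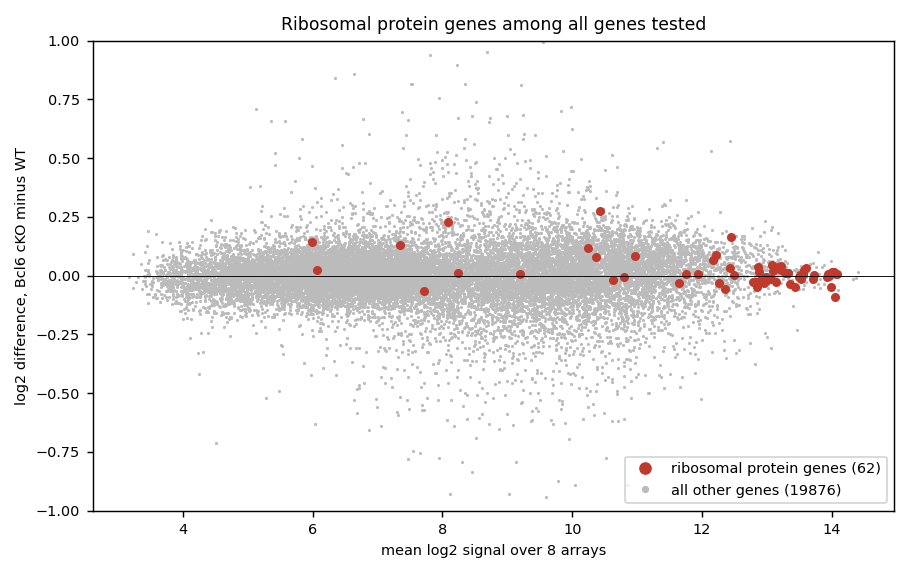
Log2 difference, Bcl6 cKO minus WT (vertical axis), against the mean log2 signal over 8 arrays (horizontal axis) for 62 ribosomal protein genes in red and 19876 other genes in grey. The axis is cut at 1 on either side of 0, which leaves 19 other genes outside. The red points crowd at the bright end close to 0, with Rpl12, Rps4l and Rps27l the highest among them.

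The large-subunit genes had the smallest typical differences. Of 30 genes, 22 lay above 0 and 8 below, where 51% of all genes lay above 0, with a median difference of 0.0075. Rpl10, which joins the large subunit late in its assembly and lies on the X chromosome, had the brightest mean signal of the family. It read 14.10, 14.07, 14.06 and 14.08 on the Bcl6 cKO arrays, against 14.07, 14.10, 14.07 and 14.05 on the WT arrays. The groups overlapped fully, and the difference was 0.0050 with a 95% interval from -0.091 to 0.10.

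Rpl12, a protein at the base of the stalk, had the widest spread of the core genes. It read 10.41, 10.58, 10.73 and 10.52 in Bcl6 cKO, against 10.24, 10.33, 10.59 and 9.98 in WT. The Bcl6 cKO arrays lay above all WT arrays but replicate 3, and WT replicate 4 was the lowest. The difference was 0.28 with an interval from 0.020 to 0.53 (limma, adjusted p = 0.414), and without WT replicate 4 it was 0.17. Among arrays of low Y-linked signal, where WT replicate 4 is the only WT array, it was 0.63, and among those of high signal, where Bcl6 cKO replicate 1 is the only Bcl6 cKO array, it was 0.023. In each such split 1 group is a single array, so these values, here and below, describe that array and are given with no test.

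Rpl14, whose promoter is printed above, read 10.36, 10.39, 10.18 and 10.26 in Bcl6 cKO, against 10.19, 10.17, 10.24 and 10.12 in WT. Bcl6 cKO replicate 3 lay among the WT arrays and the others above them. The difference was 0.12 (interval -0.012 to 0.25, limma adjusted p = 0.520).

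Rpl24, whose mutation in mice causes the Belly spot and tail phenotype, lies on chromosome 16, as Bcl6 does. It read 12.34, 12.27, 12.18 and 12.27 in Bcl6 cKO, against 12.19, 12.18, 12.14 and 12.20 in WT. The Bcl6 cKO arrays other than replicate 3 stood above every WT array. The difference was 0.088 (interval -0.023 to 0.20, limma adjusted p = 0.580). Its other 2 clusters, which are dimmer, gave 0.13 and 0.14, and in both every Bcl6 cKO array lay above every WT array (limma over all clusters, adjusted p = 0.427 and 0.373). Of all genes, 2.33% show this in the cluster kept, and the share over all clusters was not counted. Among arrays of high Y-linked signal the difference of the brightest cluster was 0.17, and among those of low signal 0.040. In gene order Rpl24 is 200 tested genes after Bcl6, and Rpl39l, the other member on that chromosome, 183 before it.

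Rpl23 and Rpl36a stood on the other side of 0. Rpl23, which can bind Mdm2 when ribosome assembly is disturbed, read 13.43, 13.37, 13.43 and 13.37 in Bcl6 cKO, against 13.45, 13.46, 13.43 and 13.45 in WT. The Bcl6 cKO arrays lay at or below the lowest WT array, and the difference was -0.048 (limma, adjusted p = 0.783). X-linked Rpl36a read 13.37, 13.32, 13.33 and 13.31 in Bcl6 cKO, against 13.36, 13.39, 13.35 and 13.37 in WT, a difference of -0.035 with overlapping groups. Rpl7, the parent gene of Rpl7l1, differed by 0.045 (interval -0.068 to 0.16).

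A pair of further large-subunit genes is given for their roles, although their values had been seen. Rpl22, which the development of alpha-beta T cells in mice requires, read 9.27, 9.19, 9.21 and 9.13 in Bcl6 cKO, against 9.35, 9.22, 9.24 and 8.97 in WT. The Bcl6 cKO arrays lay inside the WT range, which WT replicate 4 set at its low end and WT replicate 1 at its high end. Rpl5, which binds Mdm2 together with 5S ribosomal RNA, read 13.54, 13.49, 13.45 and 13.45 in Bcl6 cKO, against 13.47, 13.50, 13.48 and 13.50 in WT, a difference of -0.0050.

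**Figure D3:**
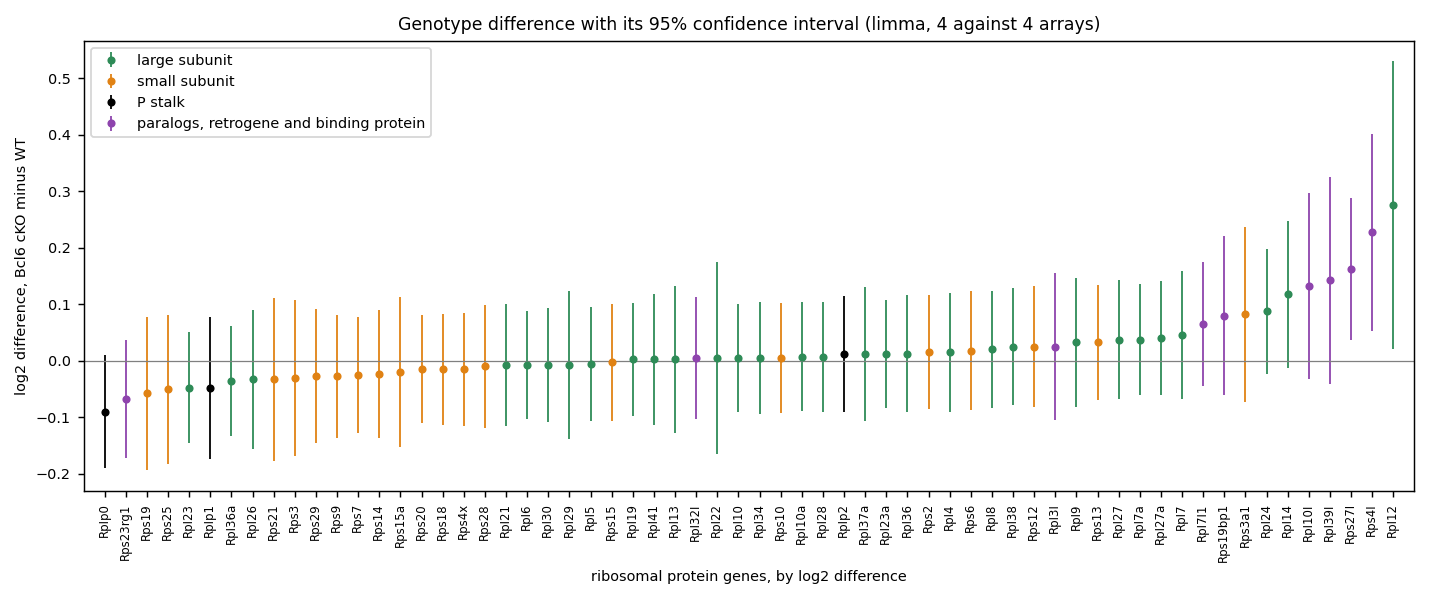
Log2 difference, Bcl6 cKO minus WT (vertical axis), of each of the 62 genes with its 95% interval from limma (4 against 4 arrays), ordered from lowest to highest and coloured by the part of the ribosome. All intervals but those of Rps27l, Rps4l and Rpl12 include 0, and of the 9 genes in purple, which are no standard subunit genes, Rps23rg1 stands at the left, Rpl32l (0.0050) in the middle and Rpl3l (0.025) between the middle and the right, with the others at the right.

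The small-subunit genes lay more often below 0, by small amounts. Of 20 genes, 6 were above 0 and 14 below, where 51% of all genes lay above 0. The median difference was -0.015, with a range from -0.058 (Rps19) to 0.083 (Rps3a1). None reached 0.1 in size. With sex as a term, 13 of the 62 members changed sign, and their split by subunit was not counted. Rps19, the gene most often mutated in human Diamond-Blackfan anaemia, read 12.24, 12.34, 12.46 and 12.25 in Bcl6 cKO, against 12.45, 12.36, 12.40 and 12.31 in WT. Bcl6 cKO replicates 1 and 4 lay below all WT arrays and replicate 3 above them, so the groups overlapped (limma, adjusted p = 0.818). Among arrays of high and of low Y-linked signal Rps19 differed by -0.16 and 0.040. Rps25, which some viral internal ribosome entry sites need, read 12.88, 12.91, 12.69 and 12.83 in Bcl6 cKO, against 12.81, 12.89, 12.87 and 12.94 in WT, where Bcl6 cKO replicate 3 alone was low. Without that array the Rps25 difference was -0.0042. The other clusters of Rps25 gave differences from 0 to 0.02, and the mean of all its clusters gave -0.00042.

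Rps6, the substrate of the S6 kinases downstream of mTOR, read 14.07, 14.07, 14.01 and 14.01 in Bcl6 cKO, against 13.98, 14.04, 13.99 and 14.08 in WT, with a difference of 0.018. X-linked Rps4x read 13.06, 13.04, 13.08 and 13.06 in Bcl6 cKO, against 13.13, 13.05, 13.07 and 13.05 in WT, with a difference of -0.015. The groups of both genes overlapped. For the 3 X-linked members the differences among arrays of high and of low Y-linked signal, each against a single array, were 0.020 and 0.020 for Rpl10, 0.0033 and -0.050 for Rpl36a, and -0.023 and 0.010 for Rps4x.

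Of the P stalk genes, Rplp0 was the only member whose Bcl6 cKO arrays all lay below its WT arrays in its brightest cluster, where 3.64% of all genes show such a separation. It read 14.03, 13.96, 13.96 and 14.03 in Bcl6 cKO, against 14.08, 14.07, 14.09 and 14.10 in WT. The gap between the groups was 0.04 log2 units. The means were 13.99 ± 0.040 in Bcl6 cKO and 14.09 ± 0.013 in WT (SD, n = 4 each), a difference of -0.09 with an interval from -0.19 to 0.010 (limma, adjusted p = 0.522).

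Rplp1 and Rplp2, which bind Rplp0 as dimers, did not separate. Rplp1 read 13.92, 13.86, 14.07 and 14.01 in Bcl6 cKO, against 14.05, 13.98, 14.04 and 13.98 in WT, a difference of -0.048. Rplp2 read 8.25, 8.27, 8.21 and 8.28 in Bcl6 cKO, against 8.25, 8.26, 8.18 and 8.27 in WT, a difference of 0.013. Replicate 3 gave the lowest Rplp2 value in both groups. The second cluster of Rplp0 differed by -0.073, also with separate groups, and that of Rplp1 by -0.030.

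The 9 genes outside the core spread more between arrays, with a median span of 0.29, the same as over all genes, against 0.12 for the core genes. Of these 9, 8 lay above 0 and 1 below, where 51% of all genes lay above 0, with a median difference of 0.08. A size of 0.1 was reached by 4 of them, against 26.4% of all genes. They were also dimmer, with a median signal of 8.08. Of the 5 with a signal from 5.5 to 9, 3 reached 0.1, against 22.3% of 10626 genes of like signal that are no members, and the median span was 0.42 for these 5, against 0.29. Of the 4 with a signal from 9 to 13, 1 did, against 37.4% of 6632. Rps27l, a paralog of Rps27 that p53 induces, was the only member whose Bcl6 cKO arrays all lay above its WT arrays in its brightest cluster, where 2.33% of all genes do. It read 12.45, 12.51, 12.55 and 12.57 in Bcl6 cKO, against 12.44, 12.28, 12.42 and 12.29 in WT. The gap between the groups was 0.01 log2 units. The means were 12.52 ± 0.053 in Bcl6 cKO and 12.36 ± 0.084 in WT (SD, n = 4 each), a difference of 0.16 with an interval from 0.038 to 0.29 (limma, adjusted p = 0.318). Within arrays with high Y-linked signal the difference was 0.07, and within those with low signal 0.25.

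Rps4l, an autosomal copy of Rps4x, read 8.14, 8.32, 8.04 and 8.27 in Bcl6 cKO, against 7.85, 8.09, 7.87 and 8.05 in WT. WT replicates 2 and 4 lay just above Bcl6 cKO replicate 3, and the other arrays were separate. The difference was 0.23 with an interval from 0.053 to 0.40 (limma, adjusted p = 0.314), and its other cluster gave 0.14. Its parent gene Rps4x differed by -0.015, as given above. Within arrays with high and with low Y-linked signal the Rps4l difference was 0.20 and 0.16.

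The remaining paralogs were dimmer or overlapped more. Rpl10l, a retroposed copy of Rpl10 that is active in male germ cells, read 7.57, 7.31, 7.39 and 7.37 in Bcl6 cKO, against 7.32, 7.15, 7.22 and 7.42 in WT, a difference of 0.13 (limma, adjusted p = 0.568). Rpl39l, a paralog of Rpl39 that is also enriched in the testis, read 5.90, 6.24, 5.99 and 6.11 in Bcl6 cKO, against 6.08, 5.80, 5.89 and 5.90 in WT, a difference of 0.14 (limma, adjusted p = 0.586). For Rpl10l, Bcl6 cKO replicate 1 lay above every WT array, and for Rpl39l Bcl6 cKO replicates 2 and 4 did. The other arrays of the groups mixed. Without Bcl6 cKO replicate 1 the Rpl10l difference was 0.079, and without Bcl6 cKO replicate 2 that of Rpl39l was 0.083. Among arrays of high and of low Y-linked signal Rpl10l differed by 0.34 and -0.063, and Rpl39l by -0.023 and 0.21, so both turned sign.

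Rpl3l, a muscle paralog of Rpl3, read 6.05, 6.07, 6.19 and 6.04 in Bcl6 cKO, against 6.11, 5.95, 6.05 and 6.14 in WT, a difference of 0.025. Its signal and that of Rpl39l lay among the dimmest of the family, and whether these exceed background was not tested. Rpl7l1, a paralog of Rpl7, read 12.17, 12.19, 12.26 and 12.19 in Bcl6 cKO, against 12.21, 12.13, 12.14 and 12.07 in WT. Only WT replicate 1 lay among the Bcl6 cKO arrays, and the difference was 0.065 (limma, adjusted p = 0.714). Rpl32l differed by 0.0050.

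Rps23rg1, the retroposed copy of Rps23, was the one gene of this kind below 0. It read 7.71, 7.61, 7.69 and 7.70 in Bcl6 cKO, against 7.74, 7.79, 7.74 and 7.71 in WT. Bcl6 cKO replicate 1 equalled WT replicate 4 and the other Bcl6 cKO arrays lay below all WT arrays. The difference was -0.068 (interval -0.17 to 0.037, limma adjusted p = 0.677).

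**Figure D4:**
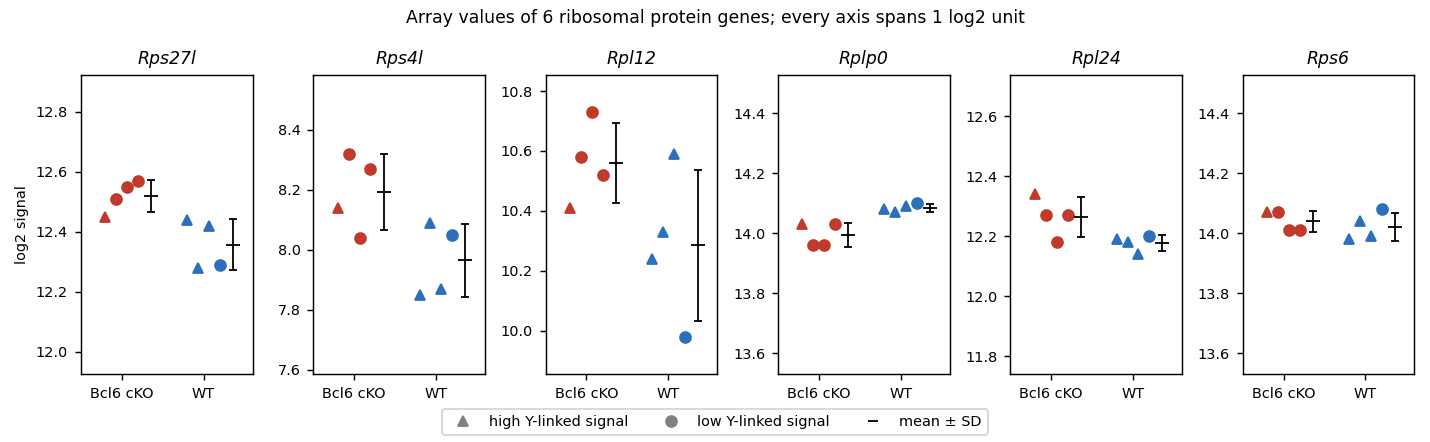
Log2 signal of 6 genes on every array (vertical axes, each spanning 1 log2 unit), Bcl6 cKO in red to the left and WT in blue to the right, replicates 1 to 4 from left to right within a group; triangles mark high and circles low Y-linked signal, and bars the mean ± SD of 4 arrays. Rps27l lies wholly higher and Rplp0 wholly lower in Bcl6 cKO, Rpl12 shows its low value on WT replicate 4, and Rps6 shows groups that overlap.

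Many of these genes were read by several clusters. These may not be independent readings, since copies of nearly the same sequence exist, and their independence was not tested. The 62 genes had 214 clusters with their symbol alone; 38 genes had several, up to 14 for Rps12, and 24 had 1. Of these clusters, 19 in 5 genes were identical on every array to another cluster of the same gene, so each identical set amounts to 1 reading. Between clusters of a gene the mean signal spanned a median of 0.376 log2 units, and over 1 in 4 genes, with 2.85 for Rpl23, 2.05 for Rps21, 1.49 for Rpl7a and 1.23 for Rpl24. The genotype difference spanned a median of 0.023 between clusters of a gene and at most 0.093, in Rps4l. In 25 of the 38 genes all clusters gave the difference one sign. With each cluster tested as a feature of its own, limma called 0 of the 214 (5 at an unadjusted p under 0.05, all higher, 2.34%), against 15 of 35556 clusters of any kind, 9.89% of which had an unadjusted p under 0.05.

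Ribosomal protein genes have many processed pseudogenes of nearly the same sequence, and the array cannot always tell them apart. A further 239 clusters list a ribosomal protein together with other symbols, whose kinds were not counted. They hold 39 symbols of the family, 20 of which have no cluster of their own and are not analysed here by name. The log2 differences of these clusters ran from -0.405 to 0.17 with a median of 0.0025. Limma called 0 of the 239 (3 at an unadjusted p under 0.05, all lower, 1.26%), against 9.89% of all clusters with such a p. RefSeq lists 88 protein-coding mouse genes whose symbols meet the name rule, and 61 of them are among the 62 described.

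Across arrays the family moved little as a whole in the deposited signals. The mean log2 signal over the 62 genes was 12.27 to 12.28 on the Bcl6 cKO arrays and 12.24 to 12.29 on the WT arrays, so the WT arrays enclosed the Bcl6 cKO arrays. WT replicate 4 held the lowest value alone in 19 of the 62 genes (30.6%), against 21.8% of all genes, and WT replicate 1 the highest value alone in 14 (22.6%), against 8.82% of all genes. The interquartile range of the deviations from each gene's median was 0.075 on WT replicate 4, against 0.035 to 0.055 on the other arrays. Over all genes the same array had 0.18.

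**Figure D5:**
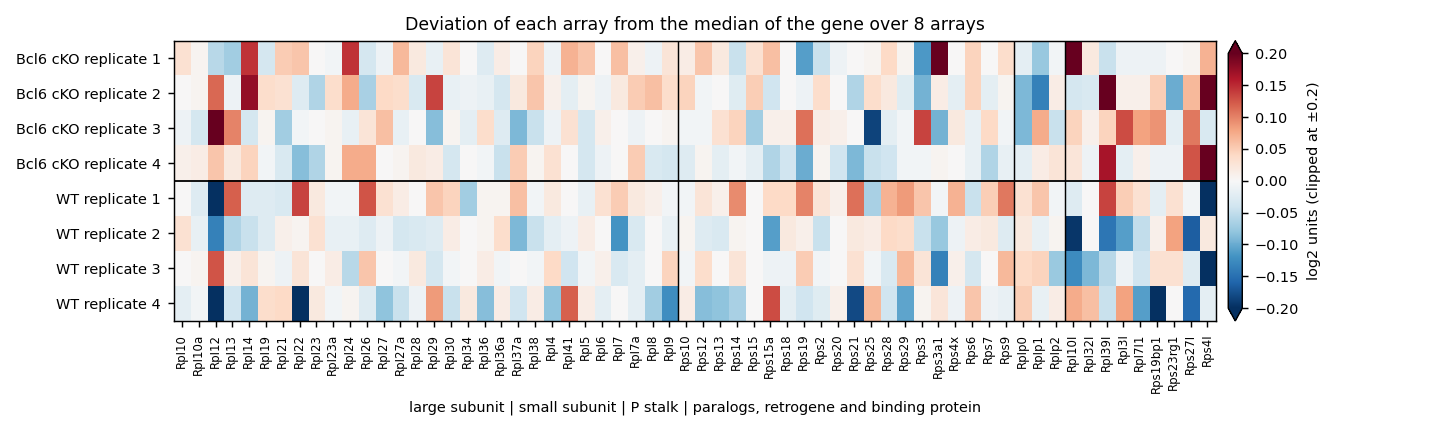
Deviation of each array (vertical axis, Bcl6 cKO above WT) from the median of the gene over 8 arrays, in log2 units by colour, clipped at 0.2 on either side of 0, for 62 genes in the order of large subunit, small subunit, P stalk and the other 9. Most cells are pale, the strong colours gather in the last block and in Rpl12, and WT replicate 4 holds the lowest value alone in 19 genes.

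Genes that act with the ribosomal proteins are given by list. Of the ribosomal proteins with other names 2 were measured, Rpsa with a difference of -0.01 and Fau, which is fused to a ubiquitin-like protein, with -0.018. Of 18 other genes whose messenger RNAs carry a TOP tract, among them elongation factors, 9 lay above 0 and 9 below, with a median of 0.015 that was -0.0042 without WT replicate 4. Limma called 0 of the 18 (1 at an unadjusted p under 0.05, against 10.9% of all genes). That 1 was the nucleolar protein gene Ncl, with 13.19, 13.28, 13.18 and 13.18 in Bcl6 cKO, against 13.07, 13.11, 13.12 and 13.09 in WT (difference 0.11, adjusted p = 0.422). Npm1, a nucleolar chaperone, differed by 0.12 with overlapping groups (adjusted p = 0.550). The median of these 18 genes was -0.0083 among arrays of high and 0.010 among those of low Y-linked signal.

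Of 18 genes of mTOR signalling and TOP translation, 10 lay above 0 and 8 below, with a median of 0.014. Without Bcl6 cKO replicate 3 that median was 0.00042, and without WT replicate 2 or 3 it was 0.0317. It was -0.0333 among arrays of high and 0.12 among those of low Y-linked signal. Limma called 0 of the 18 (3 at an unadjusted p under 0.05, all higher, against 4.68% of all genes). Larp4, which binds poly(A) tails, averaged 11.10 ± 0.070 in Bcl6 cKO and 10.92 ± 0.039 in WT (SD, n = 4 each), a difference of 0.19 (limma, adjusted p = 0.209). The cap-binding factor Eif4e read 11.41, 11.49, 11.55 and 11.46 in Bcl6 cKO, against 11.36, 11.30, 11.37 and 11.18 in WT (difference 0.18, adjusted p = 0.289). For both genes every Bcl6 cKO array lay above every WT array, where 2.33% of all genes show this. Larp1 itself differed by 0.12, also with every Bcl6 cKO array above every WT array (limma, adjusted p = 0.391). Mtor differed by 0.025 with overlapping groups.

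The 19 chaperones, importers and assembly factors of ribosomal proteins lay mostly above 0. They were above 0 in 18 genes and below in 1, where 51% of all genes lay above 0. Their median was 0.105, beside 0.0050 for the ribosomal protein genes and 0.0025 for all genes. Limma called 0 of the 19 (4 at an unadjusted p under 0.05, all higher: Kpnb1, Heatr3, Ltv1 and Nmd3). Over all genes tested, 4.68% were higher at such a p. The importin Kpnb1 read 11.79, 11.85, 11.92 and 11.85 in Bcl6 cKO, against 11.76, 11.68, 11.72 and 11.63 in WT (difference 0.16, adjusted p = 0.289). Heatr3, which serves the import of Rpl5, read 10.50, 10.58, 10.74 and 10.56 in Bcl6 cKO, against 10.47, 10.45, 10.40 and 10.30 in WT (difference 0.19, adjusted p = 0.298). WT replicate 4 was lowest for both genes.
The median of this list was 0.0675 without WT replicate 4. Among arrays with high Y-linked signal it was 0.01, with 10 of 19 genes above 0, and among those with low signal 0.243, where WT replicate 4 stands alone. Rps19bp1 is in this list and among the 62 genes.

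Of 9 measured genes of the p53 response to ribosomal stress, 5 lay above 0 and 4 below, with a median of 0.0025, which leaving out single arrays moved between -0.102 (without Bcl6 cKO replicate 2) and 0.0325 (without WT replicate 3). Limma called 0 of them (2 at an unadjusted p under 0.05, 1 in each direction), where 10.9% of all genes had such a p. Rps27l was the one above 0 and Sesn1, a stress-induced inhibitor of mTOR, the one below, with 9.97, 9.79, 9.81 and 9.47 in Bcl6 cKO, against 10.07, 10.24, 9.92 and 10.48 in WT (difference -0.42, adjusted p = 0.253). Mdm2, which restrains p53, differed by 0.013, and Zmat3, another p53 target, by 0.0025. The median of the 9 genes was -0.0967 among arrays of high and 0.0767 among those of low Y-linked signal.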

How the data were processed

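Each of 8 samples, 4 Bcl6 cKO and 4 WT, was hybridised to 1 Affymetrix array. Per transcript cluster and array the authors deposited a log2 signal. RMA and Partek made it, per the submitters' processing notes, with version and settings not given in the sources used here. RMA brings all arrays to 1 distribution, so a change shared by most genes would not be seen. Of the 200 genes in the brightest 1%, 39 are members, so a change shared by the family may also have been reduced. How far this holds was not tested. The genotypes were set against each other over 19938 genes by limma (version 3.58.1, R 4.3.3; lmFit and eBayes with no covariate or filter), with p-values adjusted by Benjamini and Hochberg at 0.05. The steps were tested on simulated data. Chromosomes, gene order and promoter windows came from RefSeq tables of GRCm38.p6.

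Named are, per direction, the 6 members with the smallest p; the brightest and dimmest; paralogs with their parents; the P stalk; X-linked members; those with the widest spread; and 2 genes per list. Rpl5, Rpl22, Rps6, Mtor, Larp1, Mdm2, Zmat3 and Cd8a were added for their roles. Members and lists were chosen with earlier results of these data known.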

Additional observations from a re-analysis of the deposited data

How the results depend on the processing

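Over 22 other settings no member was called in either direction by limma, and the median difference of the members lay between 0.0016 and 0.0092. The settings were moderation of the variance, weights per array, centring on medians, quantile normalization, 2 signal filters (leaving 60 and 59 members), the mean or the dimmest cluster per gene, replicate number, sex, or odd and even numbers as a term, leaving out each array, 2 other thresholds, and the core genes alone. The smallest adjusted p of a member was 0.0857 (Rps4l, odd or even number as a term). Members with an unadjusted p under 0.05 numbered 1 to 4. The count of members wholly higher in Bcl6 cKO was 1, and became 2 under quantile normalization, with the mean of clusters and with the dimmest cluster, and 0 for the 53 core genes; the causes were not tested. Leaving out single arrays gave 1 to 4 wholly higher (3 without WT replicate 1, 2 without WT replicate 3, 4 without Bcl6 cKO replicate 3) and 1 to 4 wholly lower (2 without WT replicate 3, 4 without WT replicate 4, 3 without Bcl6 cKO replicate 1), where groups of fewer arrays separate more easily. Up to 13 members changed sign (sex as a term), none of them with a difference of 0.1 or more in size. For the replicate numbers, the signals of each gene were taken as deviations from its mean in the same genotype. Over all genes, these deviations correlated at 0.073 to 0.206 between same-numbered arrays of the genotypes, over 0.1 in 3 of 4 pairs. Between differently numbered arrays they correlated at -0.236 to 0.186. By this measure 6 of 8 arrays correlated best with their own number, a hint from the data and not the design. The numbers were not taken as pairs because 1 pair fell short of 0.1. With the replicate block 0 members and 35 of all genes were called. Differences within each sex, chosen after seeing the data, set 3 arrays against 1 and gave medians of 0.01 and 0.013 with high and low Y-linked signal; 18 and 23 members changed sign, among them Rpl39l and Rpl10l, each with a difference of 0.1 or more over all arrays, and 0 members were called; over all genes they called 0 with high and 43 with low Y-linked signal.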

Other observations

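Markers of other cells are given as values. Of 6 CD8 and NK cell markers, 2 lay above 0 and 4 below. Limma called 0 of these markers (3 at an unadjusted p under 0.05, against 10.9% of all genes). The CD8 chain gene Cd8b1 read 10.52, 10.56, 10.78 and 10.41 in Bcl6 cKO, against 10.90, 11.12, 11.02 and 11.12 in WT, with every Bcl6 cKO array lower (difference -0.47, limma adjusted p = 0.0541). Such a separation downward was found in 3.64% of all genes. The other CD8 chain gene, Cd8a, averaged 6.97 in Bcl6 cKO and 6.99 in WT, with overlapping groups (difference -0.0225, limma adjusted p = 0.951). Whether the samples differed in CD8 cells was not tested. The granzyme gene Gzmb read 7.40, 8.63, 7.44 and 7.48 in Bcl6 cKO, against 7.01, 7.69, 6.93 and 6.92 in WT, with replicate 2 highest in both groups (difference 0.60, limma adjusted p = 0.451). Of 8 T cell markers, 7 lay below 0, where 51% of all genes lay above 0. Their median difference was -0.0067 among arrays of high Y-linked signal, with 4 of 8 above 0. Among those of low signal it was -0.135, with 1 of 8 above 0. Cd3d, a chain of the T cell receptor complex, was wholly lower in Bcl6 cKO, with 11.30, 11.18, 11.23 and 11.22, against 11.49, 11.41, 11.36 and 11.36 in WT (difference -0.17, limma adjusted p = 0.242). The 4 erythroid and platelet markers measured all lay above 0, with an array mean of up to 6.66 in Bcl6 cKO, against up to 6.06 in WT, and 2 of them did without Bcl6 cKO replicate 2. Their median difference was -0.0817 among arrays of high and 0.205 among those of low Y-linked signal. Limma called 0 of the 4 (0 at an unadjusted p under 0.05). Their part in the small differences of the ribosomal protein genes was not tested.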
